A study of Homo sapiens with 8 samples.

Results

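The respiratory chain set comprised the protein-coding genes of the mitochondrial genome together with the nuclear genes whose symbols name subunits of complexes I to V (the NDUFA, NDUFB, NDUFC, NDUFS and NDUFV genes, SDHA to SDHD, the UQCR genes, COX4 to COX8 and the ATP5 genes). Assembly factors with symbols starting with NDUFAF or SDHAF and entries with a pseudogene number at the end of the symbol were left out. Members were chosen by name and chromosome and not by any measured value, so that ATP5SL was counted under complex V by its symbol alone. The rule found 105 members among 55679 gene identifiers, of which 19731 were protein-coding. Of the members, 13 were encoded in mitochondrial DNA (7 of complex I, 1 of complex III, 3 of complex IV and 2 of complex V) and 92 in the nucleus (40 of complex I, 5 of complex II, 9 of complex III, 19 of complex IV and 19 of complex V). NDUFA4 and its paralogue NDUFA4L2 were counted under complex IV, to which NDUFA4 is now assigned. Symbols are those of the deposited table, in which ATP synthase genes carry their older names (ATP5A1 for the alpha subunit, ATP5B for the beta subunit).

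Complexes I and II pass electrons from NADH and succinate to ubiquinone, complex III passes them to cytochrome c, and complex IV reduces oxygen. Complexes I, III and IV pump protons across the inner mitochondrial membrane, and the ATP synthase, complex V, uses that gradient to make ATP. Every complex but complex II is assembled from subunits of both genomes. Mitochondrial DNA is transcribed in the organelle as long RNAs that are cut at the tRNAs, whereas the other subunits are made from nuclear genes and imported as proteins.

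RNA was sequenced from the triple-negative breast cancer lines MDA-MB468 and BT549, in which the study searched for the way Acetalax (oxyphenisatin acetate) acts and for what changes in resistant cells. Each line was taken as parental cells and as chronic exposure (CE) cells, which had been passaged in doubling Acetalax concentrations, were designated resistant clones at 40 μmol/L and were used after 2 weeks without the drug. Each of these 4 cultures was sequenced untreated (control) and following 6 hours in Acetalax at 1 μmol/L, so that 8 conditions had 1 polyA-selected library each. No condition was replicated, so every test took its spread from how alike a difference was across lines, states or treatments, and its p-values cover only the spread between these 8 libraries. Since each CE culture descends from 1 selection, CE state and the history of that culture cannot be told apart.

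The 8 libraries held 42261122 to 54241728 counts assigned to genes. The line markers matched the labels: EPCAM had 18077 to 21296 counts in MDA-MB468 and 2 to 8 in BT549, and VIM had 46856 to 61524 counts in BT549 and 78 to 434 in MDA-MB468. Of the epithelial list (EPCAM, CDH1, KRT8, KRT18, KRT5 and EGFR), KRT8 and KRT18 stood higher in CE than in parental BT549, with KRT8 at 53 counts in parental control, 37 in parental Acetalax, 1865 in CE control and 1125 in CE Acetalax cells, whereas EPCAM stayed at 8, 4, 2 and 7 counts. CDH1 had 10 and 11 counts in parental and 52 and 18 in CE BT549. KRT5 had 3 and 0 counts in parental and 1 and 4 in CE BT549. EGFR, at 314 and 379 CPM in parental and 250 and 440 CPM in CE BT549, was lower in CE control and higher in CE Acetalax cells. The mesenchymal genes stood lower in the same CE cells, with FN1 at 1629 and 1632 CPM in parental and 593 and 748 CPM in CE cells, CDH2 at 223 and 242 against 109.5 and 135 CPM, VIM at 1327 and 1414.5 against 864 and 962 CPM, and ZEB1 at 86.1 and 64.4 against 58.5 and 47.9 CPM, each in the order control and Acetalax. The leukocyte gene CD3E, the globin genes HBB and HBA1 and the muscle genes MYH7, ACTA1 and CKM had at most 15 counts in any library. The leukocyte gene PTPRC had at most 41 counts, and the endothelial gene CDH5 had 36 to 381 counts in the MDA-MB468 libraries, lowest in parental control and highest in CE Acetalax cells, and 0 in BT549. CD14 had 301 to 2293 counts in MDA-MB468 and 31 to 111 in BT549, and the hormone receptor genes ESR1 and PGR had at most 245 and 34. ERBB2, listed with these 2 receptors, was higher, with 1791 to 4827 counts. The part of these marker differences in the results on either line was not tested. In bulk RNA, fewer cells of a kind and less RNA per cell cannot be told apart.

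The most abundant members were the mitochondrially encoded subunits. Per length (FPKM, CPM per kilobase of the canonical transcript, averaged over the 8 libraries), MT-CO1, the catalytic subunit of complex IV, stood at 10216, MT-CO2 at 9855 and MT-ND4, a membrane subunit of complex I, at 6670.0, and the least abundant of the 13, MT-ND6, at 2088. The median over the 13 was 3831 FPKM, against 66.0 FPKM over the 79 nuclear members that averaged at least 1 CPM (CPM, the share of assigned counts scaled to 1000000). By complex, the medians of these nuclear members were 60.9 FPKM for complex I, 54.1 for complex II, 43.1 for complex III, 101 for complex IV and 83.4 for complex V. Highest among nuclear subunits were NDUFS5 (575 FPKM), NDUFA1 (282) and NDUFS6 (261) of complex I, UQCRH (529.7), UQCRC1 (117) and UQCRC2 (78.1) of complex III, COX4I1 (444), COX6B1 (403) and COX7A2 (319) of complex IV, and ATP5B (422), ATP5G2 (175) and ATP5H (165) of complex V. In complex II, the only complex made of nuclear subunits alone, the iron-sulphur subunit SDHB stood at 81.2 FPKM, the membrane anchors SDHC and SDHD at 62.1 and 46.1, and the flavoprotein SDHA at 7.11.

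Some low values per length went with a long canonical transcript. NDUFA9, listed lowest among the complex I subunits over 1 CPM at 1.30 FPKM, had a canonical transcript of 8356 bases and 10.9 CPM, and UQCRB, at 14.2 FPKM, had one of 8459 bases and 119.9 CPM. In complex III the lowest levels per length were those of UQCR11 (6.77 FPKM), UQCRB and UQCR10 (19.4 FPKM), and in complex V the coupling factor subunit ATP5S stood at 2.36 FPKM.

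The counting also lowered some members. Among 582 genes whose exons lay wholly inside exons on the other strand, only 2 had 10 or more counts, so reads over overlapping genes were left uncounted without regard to strand, and 33 of the 105 members had 10% or more of their exon bases inside another gene's exons. Of the 81 nuclear members that were tested, 56 had less overlap than that. The 13 members under 1 CPM were both entries of NDUFA7, the second entries of NDUFB8, SDHD and UQCR11, the read-through genes NDUFC2-KCTD14 and ATP5J2-PTCD1, the tissue-restricted isoforms COX4I2, COX6A2, COX6B2, COX7B2 and COX8C, and ATP5L2. A total of 5 members were listed at 0 in every library, and 11 members did not pass the filter on low counts and were not tested. The paralogues of these isoforms stood at 339 CPM for COX4I1, 30.7 for COX6A1, 196 for COX6B1, 113 for COX7B and 73.8 for COX8A, averaged over the libraries.

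Within the mitochondrial genome, MT-ATP8 and MT-ATP6 of complex V overlap by 46 bases, 22.2% of MT-ATP8, and reads wholly inside the overlap could not be counted for either gene. The stretch is shown because it sets how far the complex V values of this genome can be read as separate genes. Capitals mark the start codon of MT-ATP6 and the stop codon of MT-ATP8, which lie in different reading frames (GRCh37 reference, chrMT:8527-8572, + strand).
MT-ATP8 and MT-ATP6 overlap: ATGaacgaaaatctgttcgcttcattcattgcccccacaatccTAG

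MT-ND4L and MT-ND4 overlap by 7 bases. MT-ND6 is the only protein gene on the light strand, and since the counting ignored strand, its counts cannot be told from antisense RNA of that region. The table listed 175 nuclear genes named as copies of mitochondrial ones, of which 10 had 100 or more counts over all libraries, and together they amounted to 0.129% to 0.166% of the mitochondrial mRNA counts of a library.

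Mitochondrially encoded RNA, the 13 mRNAs with the ribosomal and transfer RNAs, took 10.0% of assigned counts in MDA-MB468 parental control, 7.89% in parental Acetalax, 9.98% in CE control and 8.87% in CE Acetalax libraries. In BT549 these shares were 7.32%, 7.29%, 5.08% and 4.00%. The 95% Wilson interval of each share reached no more than 0.00885 percentage points above it, which covers counting error only. Both CE libraries of BT549 lay below all 6 others. The 92 nuclear members took 8263, 7092, 8453 and 7752 CPM in MDA-MB468 and 6863, 7145, 8098 and 7983 CPM in BT549, in the same order of libraries. In BT549 the nuclear sum was higher in both CE libraries than in both parental ones, opposite to the mitochondrial share. Accordingly, the 13 mitochondrial mRNAs had 9.54, 8.98, 9.44 and 9.35 times the counts of the 92 nuclear members in MDA-MB468, and 7.97, 8.17, 5.27 and 4.29 times in BT549.

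**Figure D1:**
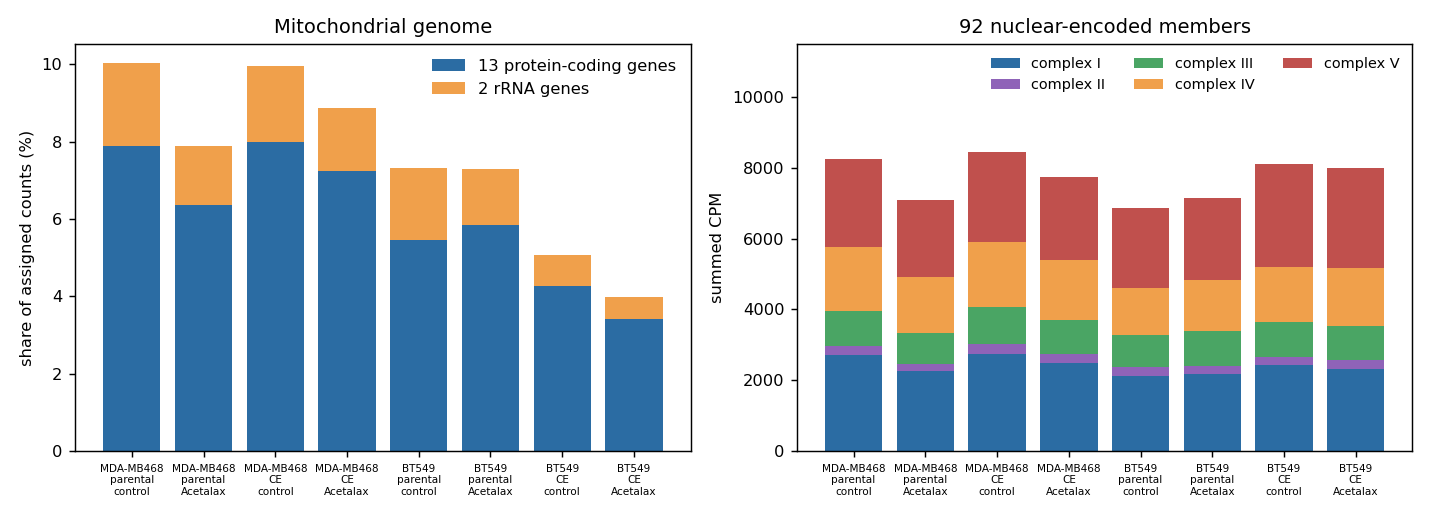
Left, percent of assigned counts in each of the 8 libraries taken by the 13 mitochondrial protein genes together and by the mitochondrial ribosomal RNA genes, as stacked bars. Right, summed CPM of the 92 nuclear members, stacked by complex. The CE libraries of BT549 have the lowest mitochondrial shares (5.08% and 4.00% with the transfer RNAs included), while their nuclear sums (8098 and 7983 CPM) exceed those of parental BT549 (6863 and 7145 CPM).

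Whether the resistant cells differ from their parents was asked within each line (edgeR quasi-likelihood test over 19693 genes, Benjamini-Hochberg adjusted p, threshold 0.05). The model held line and treatment effects. All 8 libraries were fitted together, so the spread came from the control and Acetalax pairs of both lines. In BT549 the members of the 2 genomes moved in opposite directions. Of the 81 nuclear members tested, 26 (32.1%) were higher in CE than in parental cells and none was lower, where 12.3% of all genes tested were higher. At an unadjusted p under 0.05, 43 nuclear members were higher and 2 lower. Over both genomes 59.6% of the members tested passed at that level, where 35.3% of all genes did. Of the 13 mitochondrial members, 9 (69.2%) were lower and none was higher, where 10.1% of all genes tested were lower. The median log2 fold change was -0.50 over the mitochondrial members, 0.29 over the nuclear members and -0.02 over all genes tested. DESeq2 gave 34 members higher and 8 lower, and none of the called members changed direction under any of the 12 alternatives.

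The 9 mitochondrial members lower in CE BT549 came from each of complexes I, III, IV and V. MT-CO3, a core subunit of complex IV, measured 6459, 4872, 6521 and 6224 CPM in MDA-MB468 and 4812, 4891, 3135 and 2176 CPM in BT549 (parental control, parental Acetalax, CE control and CE Acetalax, in this order here and below), and both CE values of BT549 lay below both parental ones (log2 fold change -0.80 ± 0.12 (SE), adjusted p = 0.00263). MT-CO1 measured 22211, 18077, 22632 and 19872 CPM in MDA-MB468 and 13811, 12658, 9629 and 7129.7 CPM in BT549 and fell in BT549 as well (log2 fold change -0.58 ± 0.06 (SE), adjusted p = 0.000469). The 4 BT549 libraries did not overlap by state for either gene. For MT-CO2, the third core subunit of complex IV, the difference did not pass the test (log2 fold change -0.18 ± 0.10 (SE), adjusted p = 0.255), with 4874, 5513, 4794 and 3864 CPM in BT549. Its CE control library stood just below the parental control library, and its CE Acetalax library lowest.

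Of the complex I subunits of this genome, MT-ND1, MT-ND2, MT-ND3 and MT-ND5 were lower in CE BT549. MT-ND2 measured 3232, 3804, 3975 and 4409 CPM in MDA-MB468 and 4016, 5603, 2448 and 3183 CPM in BT549 (log2 fold change -0.67 ± 0.05 (SE), adjusted p = 0.000128), and MT-ND1, the neighbouring gene upstream, 3839.8, 3843, 4545 and 4829.7 CPM in MDA-MB468 and 3219.7, 4060.0, 2326 and 2633 CPM in BT549 (log2 fold change -0.45 ± 0.06 (SE), adjusted p = 0.0012). Both genes were lowest in the CE control library of BT549. MT-ND3 changed by -0.72 ± 0.13 and MT-ND5 by -0.33 ± 0.09 on the log2 scale (adjusted p = 0.00754 and 0.0326). The values of MT-ND4, MT-ND4L and MT-ND6 were -0.24 ± 0.08, -0.30 ± 0.11 and -0.19 ± 0.12, and none passed the test (adjusted p = 0.067, 0.0844 and 0.3). MT-CYB, the only mitochondrially encoded subunit of complex III, fell by 0.50 ± 0.12 (adjusted p = 0.0239), and the proton channel subunit MT-ATP6 and its neighbour MT-ATP8 fell by 0.60 and 0.59 (adjusted p = 0.0065 and 0.0161). Of these, MT-CO1, MT-CO3, MT-ND1, MT-ND2, MT-ND3 and MT-ATP6 were called in all 12 alternatives.

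The nuclear members that rose in CE BT549 were spread over complexes I, III, IV and V. By complex, 10 of 37 tested members of complex I, 1 of 8 of complex III, 8 of 14 of complex IV and 7 of 18 of complex V were higher, and none of the 4 of complex II. Among the 56 nuclear members with less than 10% exon overlap, 19 were higher. The median log2 fold changes of the nuclear members were 0.23 in complex I, 0.25 in complex II, 0.15 in complex III, 0.45 in complex IV and 0.38 in complex V.

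NDUFA4L2, a paralogue of NDUFA4 known as a target of hypoxia-inducible factor, had the largest rise among members (ENSG00000185633, chr12:57628686-57634498). Its level was low, at 0.679, 0.597, 0.680 and 0.400 CPM in MDA-MB468 and 1.40, 0.989, 4.72 and 4.11 CPM in BT549. Both CE libraries of BT549 were above all 6 others (log2 fold change 1.99 ± 0.26 (SE), adjusted p = 0.00146). NDUFA4 itself, at 95.9, 99.6, 125 and 128 CPM in BT549, also rose (log2 fold change 0.47 ± 0.10 (SE), adjusted p = 0.0153). COX7A1, the heart and muscle isoform of a complex IV subunit (ENSG00000161281, chr19:36641824-36643771), measured 6.15, 5.13, 9.61 and 9.02 CPM in BT549 (log2 fold change 0.82 ± 0.25 (SE), adjusted p = 0.0494), while COX7A2 did not pass the test (log2 fold change 0.03 ± 0.10 (SE), adjusted p = 0.873) and COX7A2L rose (log2 fold change 0.49 ± 0.11 (SE), adjusted p = 0.0183). COX5B, a zinc-binding subunit of complex IV, measured 137, 110.5, 147 and 129 CPM in MDA-MB468 and 66.7, 66.9, 100.3 and 103 CPM in BT549, with both CE values of BT549 above both parental ones (log2 fold change 0.70 ± 0.11 (SE), adjusted p = 0.00366).

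In complex I, the accessory subunits NDUFC1 and NDUFB11 rose the most. NDUFC1 measured 36.1, 27.9, 34.9 and 29.9 CPM in MDA-MB468 and 11.3, 11.8, 21.2 and 19.7 CPM in BT549 (log2 fold change 0.92 ± 0.15 (SE), adjusted p = 0.0038) and NDUFB11 89.1, 74.5, 104 and 91.4 CPM in MDA-MB468 and 65.9, 64.7, 109 and 102 CPM in BT549 (log2 fold change 0.78 ± 0.11 (SE), adjusted p = 0.00208). For both genes the CE libraries of BT549 lay above the parental ones, and for NDUFC1 they stayed below all MDA-MB468 libraries. The core subunits NDUFV1, which binds NADH, and NDUFS8, which carries iron-sulphur clusters, rose by 0.52 ± 0.10 and 0.59 ± 0.11 (adjusted p = 0.01 and 0.00704), and the core subunit NDUFS3 by 0.52 ± 0.12 (adjusted p = 0.019). The other complex I members called, NDUFA1, NDUFA3, NDUFA10, NDUFB2 and NDUFB7, had 0.36 to 0.60, and the complex IV members COX6A1, COX6B1 and COX8A had 0.44 to 0.53. In complex III, UQCRQ rose by 0.59 ± 0.11 (adjusted p = 0.00919).

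In complex V, the head subunits ATP5A1 and ATP5B rose, as did the delta subunit ATP5D and genes for the membrane ring. ATP5C1, at 128, 122, 130 and 123 CPM in BT549, was not called. The alpha subunit ATP5A1 measured 455, 392, 465 and 422 CPM in MDA-MB468 and 336, 330.1, 530.0 and 460.1 CPM in BT549 (log2 fold change 0.66 ± 0.09 (SE), adjusted p = 0.00161), and the delta subunit ATP5D measured 65.6, 59.5, 66.2 and 69.5 CPM in MDA-MB468 and 80.1, 78.8, 126 and 118 CPM in BT549 (log2 fold change 0.71 ± 0.12 (SE), adjusted p = 0.00409). The catalytic beta subunit ATP5B measured 582, 549, 610.3 and 576 CPM in MDA-MB468 and 779, 810.1, 1019.7 and 1011 CPM in BT549 (log2 fold change 0.45 ± 0.07 (SE), adjusted p = 0.00467). In all 3 genes both CE values of BT549 were above both parental ones. Of the paralogous genes for the c subunit of the ring, ATP5G2 and ATP5G3 rose by 0.53 ± 0.11 and 0.39 ± 0.10 (adjusted p = 0.0114 and 0.0305), whereas ATP5G1 had 0.28 ± 0.12 (adjusted p = 0.14). The remaining subunits called were ATP5E and ATP5J2. In complex II, SDHA, SDHB, SDHC and SDHD had 0.20 ± 0.15, -0.04 ± 0.12, 0.34 ± 0.11 and 0.31 ± 0.12 (adjusted p from 0.063 up).

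**Figure D2:**
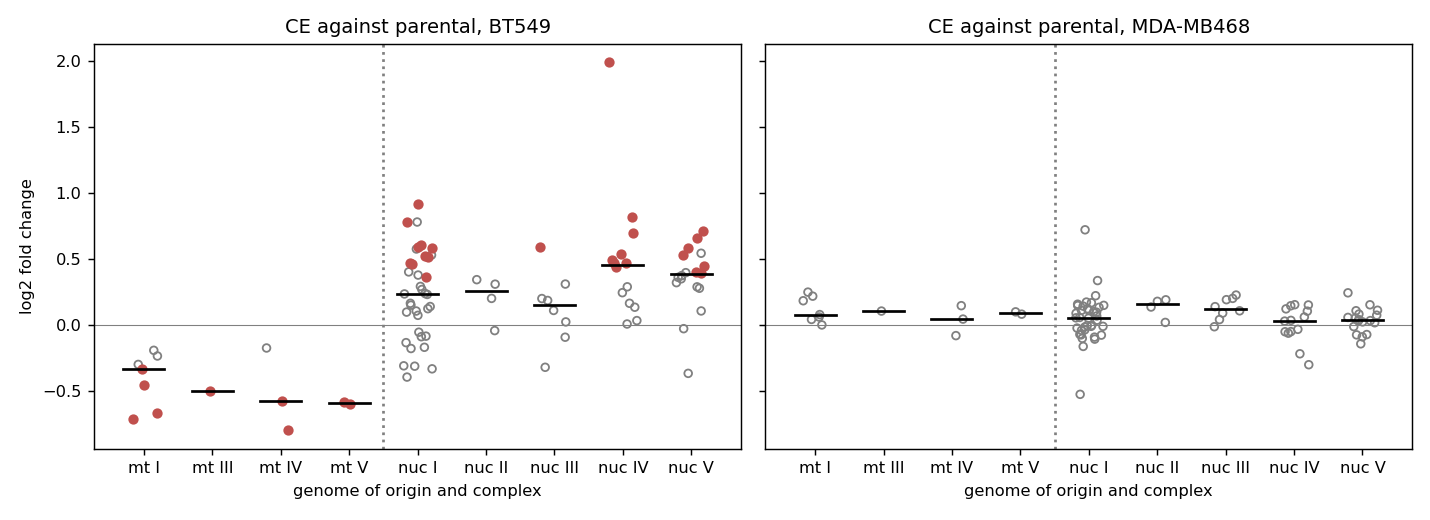
Log2 fold change, CE against parental cells, of every tested member by genome and complex, in BT549 (left) and MDA-MB468 (right). Filled red points passed the adjusted p threshold of 0.05 and open grey points did not, and black lines are medians over the members of a column. In BT549 the mitochondrial columns lie below 0 and most nuclear members above it, with 9 and 26 members called, and in MDA-MB468 no member was called.

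The count of 35 members called in BT549 fell to 18 (12 higher and 6 lower) without the parental Acetalax library of BT549 and to 19 (13 higher and 6 lower) without its CE Acetalax library. It was 29 to 34 without any other library. The nuclear members called in all 12 alternatives were ATP5A1, ATP5B, ATP5D, COX5B, NDUFA4L2, NDUFB11, NDUFC1, NDUFS8 and NDUFV1.

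The promoters of the member of each complex that rose most in CE BT549, among those with 1 start in the table, are printed to show how these genes are built. RefSeq (GRCh38.p14) gives the 250 bases before the start, which for nuclear respiratory genes are known to hold sites of NRF1, the ETS factor GABP (NRF2) and SP1. Capitals mark matches, on either strand, to GCATGCGC (the core of the NRF1 site), CCGGAAGT (ETS) and GGGGCGGGG or its reverse complement CCCCGCCCC (SP1).
NDUFB11 promoter, chrX:47144703-47144952 (- strand): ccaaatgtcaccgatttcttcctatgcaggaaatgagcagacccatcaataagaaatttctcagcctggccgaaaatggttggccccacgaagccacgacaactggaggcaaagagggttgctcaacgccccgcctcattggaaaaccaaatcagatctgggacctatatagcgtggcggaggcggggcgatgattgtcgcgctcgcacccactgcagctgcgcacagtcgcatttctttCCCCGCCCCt
UQCRQ promoter, chr5:132866392-132866641 (+ strand): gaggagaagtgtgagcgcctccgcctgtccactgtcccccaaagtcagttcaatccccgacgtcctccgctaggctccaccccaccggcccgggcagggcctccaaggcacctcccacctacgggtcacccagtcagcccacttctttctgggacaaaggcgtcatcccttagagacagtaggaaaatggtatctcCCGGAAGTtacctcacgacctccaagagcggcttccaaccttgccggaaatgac
COX5B promoter, chr2:97645812-97646061 (+ strand): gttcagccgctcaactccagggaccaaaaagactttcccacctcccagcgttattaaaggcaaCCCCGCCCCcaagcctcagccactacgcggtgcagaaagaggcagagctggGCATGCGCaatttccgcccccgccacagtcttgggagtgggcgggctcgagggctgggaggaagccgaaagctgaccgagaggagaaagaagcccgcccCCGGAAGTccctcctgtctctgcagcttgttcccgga
ATP5E promoter, chr20:59032336-59032585 (- strand): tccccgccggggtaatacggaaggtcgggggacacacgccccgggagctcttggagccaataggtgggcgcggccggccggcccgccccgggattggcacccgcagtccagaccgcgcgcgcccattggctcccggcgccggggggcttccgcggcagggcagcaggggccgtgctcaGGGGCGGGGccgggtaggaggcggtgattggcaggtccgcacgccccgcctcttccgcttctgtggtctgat

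All 4 windows held a match, with the NRF1 core in that of COX5B alone, 136 bases before the start. Of the 81 tested nuclear members, 65 had an entry. The NRF1 core stood in 13 of them (20%), against 878 of 27305 genes (3.22%), the ETS letters in 11 (16.9%) against 1127 (4.13%), and the SP1 letters in 10 (15.4%) against 4878 (17.9%). Among the 20 members with an entry that were higher in CE BT549, 3 held the NRF1 core, 4 the ETS letters and 5 the SP1 letters, and among the 45 others 10, 7 and 5. A match describes the letters in this window and is not a measured site.

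In MDA-MB468 no member differed between CE and parental cells by the edgeR quasi-likelihood test, where 4.42% of all genes tested did. At an unadjusted p under 0.05 there were 3 members (3.19%, where 16.4% of all genes passed), and DESeq2 called 0. The median log2 fold change was 0.08 over the mitochondrial members and 0.05 over the nuclear ones. MT-ND1 came nearest to the threshold (log2 fold change 0.25 ± 0.06 (SE), adjusted p = 0.0542), with 3839.8, 3843, 4545 and 4829.7 CPM, followed by MT-ND2 (log2 fold change 0.22 ± 0.05 (SE), adjusted p = 0.0678), with 3232, 3804, 3975 and 4409 CPM, and for both genes the CE libraries lay above their treatment-matched parental ones. Both were called higher when any 1 library of BT549 was left out. MT-CO1 had 0.04 ± 0.06, MT-CO2 -0.08 ± 0.10, MT-CO3 0.14 ± 0.12, MT-CYB 0.10 ± 0.12, MT-ATP6 0.10 ± 0.11 and MT-ATP8 0.08 ± 0.13. The remaining complex I genes of this genome had 0.18 ± 0.13 (MT-ND3), 0.04 ± 0.11 (MT-ND4L), 0.06 ± 0.08 (MT-ND4), -0.00 ± 0.09 (MT-ND5) and 0.08 ± 0.12 (MT-ND6).

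Of nuclear members whose difference had the same sign in both MDA-MB468 pairs, the highest mean differences of log2(FPKM + 1) included those of ATP5G1 (0.20 in control and 0.35 in Acetalax cells), UQCRFS1 (0.10 and 0.42), NDUFB11 (0.22 and 0.29) and UQCRQ (0.17 and 0.30). The lowest were those of NDUFV2 (-0.21 and -0.41), COX7A2 (-0.18 and -0.18), NDUFB8 (-0.05 and -0.15), NDUFS6 (-0.07 and -0.04) and NDUFA11 (-0.00 and -0.07). None of these passed the test. NDUFV2 was low, at 1.83, 1.65, 1.47 and 1.03 CPM in the MDA-MB468 libraries.

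The difference between the CE effects of the 2 lines was tested itself. It was positive, that is, higher in BT549, for 7 of 81 nuclear members (8.64%, where 7.3% of all genes tested were) and negative for 6 of 13 mitochondrial members (where 4.91% of all genes were). The nuclear share was near the background. The mitochondrial members were MT-CO3 (difference of log2 fold changes -0.95 ± 0.17 (SE), adjusted p = 0.00975), MT-ND3, MT-ND2 (difference -0.89 ± 0.07 (SE), adjusted p = 0.000333), MT-ND1, MT-ATP6 and MT-CO1, and the nuclear members ATP5A1, ATP5B, ATP5D, ATP5G2, NDUFA4L2, NDUFB7 and NDUFC1. Each CE effect is given by its own values above. The difference and the CE effects within a line came from the same fit of all 8 libraries. The count of 13 fell to 1, MT-ND2, without the parental Acetalax or the CE Acetalax library of MDA-MB468 and to 4 without either control library of that line, and it was 20 without the parental control library of BT549. Over both lines, CE against parental gave 0 members by edgeR, where 0.117% of all genes passed. At an unadjusted p under 0.05 there were 12 (12.8%, where 14.8% of all genes passed), all nuclear and higher, and DESeq2 called 1 member.

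Nuclear members whose difference had the same sign in all 4 CE pairs were led by NDUFB11 (mean difference of log2(FPKM + 1) 0.47), COX5B (0.38), ATP5D (0.37), UQCRQ (0.36) and ATP5A1 (0.31) among those higher in CE cells. Only NDUFV2 (-0.27), a core subunit of complex I, and COX7A2 (-0.12) were lower in all 4. NDUFV2 stood at only 0.672 to 1.83 CPM in the 8 libraries. The median over members averaged -0.24 ± 0.46 (SD over the 4 pairs) for the mitochondrial and 0.14 ± 0.08 for the nuclear genome.

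Between the lines, nuclear members differed in both directions. With the 4 matched pairs as blocks, 23 of 81 nuclear members (28.4%) were higher in BT549, where 27.3% of all genes tested were, and 22 (27.2%) were lower, where 29.5% were. Neither share stood apart from the background. Of the mitochondrial members 6 (46.2%) were lower in BT549 and none was higher. These were MT-ND6 (log2 fold change -0.98 ± 0.16), MT-CO1 (-0.81 ± 0.16), MT-ND5 (-0.72 ± 0.16), MT-CO2 (-0.72 ± 0.13), MT-ND4 (-0.61 ± 0.14) and MT-ND4L (-0.52 ± 0.15), with adjusted p from 0.00246 to 0.0266. MT-ND6 measured 1839, 1099, 1762 and 1347 CPM in MDA-MB468 and 764, 719, 740.0 and 499 CPM in BT549, and MT-ND5, whose gene lies beside it on the other strand, 6916, 4482, 6549 and 4986 CPM in MDA-MB468 and 3514, 3577, 3012 and 2316 CPM in BT549. Every BT549 library was below every MDA-MB468 library for both genes. The values of the others were -0.34 ± 0.18 for MT-ND1, 0.09 ± 0.21 for MT-ND2, 0.46 ± 0.23 for MT-ND3, -0.58 ± 0.23 for MT-CO3, 0.08 ± 0.17 for MT-CYB, 0.06 ± 0.19 for MT-ATP6 and 0.09 ± 0.19 for MT-ATP8.

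COX7A1 separated the lines more than any other member. It measured 0.123, 0.391, 0.249 and 0.252 CPM in MDA-MB468 and 6.15, 5.13, 9.61 and 9.02 CPM in BT549, 49.9 and 13.1 times higher in BT549 in the parental control and Acetalax pairs and 38.5 and 35.7 times higher in the CE pairs (log2 fold change 5.06 ± 0.42 (SE), adjusted p = 0.000195). The muscle genes ACTA1, MYH7 and CKM had at most 14, 1 and 15 counts in any library. UQCRB, a nuclear-encoded subunit of complex III, measured 65.5, 50.1, 71.2 and 56.4 CPM in MDA-MB468 and 191, 190.4, 171 and 164 CPM in BT549 (log2 fold change 1.73 ± 0.15 (SE), adjusted p = 0.000207). NDUFB9 and NDUFB6, accessory subunits of complex I, were higher by 1.35 ± 0.17 and 1.32 ± 0.13 (adjusted p = 0.00103 and 0.000353), and NDUFA4L2 by 2.15 ± 0.56 (adjusted p = 0.0166).

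Lower in BT549 were NDUFV3, an accessory subunit beside the NADH site of complex I, at 62.4, 42.04, 59.3 and 57.2 CPM in MDA-MB468 and 15.4, 11.7, 16.4 and 13.4 CPM in BT549 (log2 fold change -1.79 ± 0.14 (SE), adjusted p = 0.000156), and ATP5H, a stalk subunit of complex V, at 147, 122, 154 and 142 CPM in MDA-MB468 and 53.3, 54.5, 65.0 and 64.7 CPM in BT549 (log2 fold change -1.09 ± 0.14 (SE), adjusted p = 0.000954). For UQCRB, NDUFV3 and ATP5H alike, the 4 libraries of 1 line did not overlap the 4 of the other. NDUFC2, NDUFC1 and the stalk subunit ATP5J followed, with -1.01 ± 0.22, -0.89 ± 0.25 and -0.84 ± 0.17 (adjusted p = 0.0089, 0.0211 and 0.00709). In complex II, SDHB was higher in BT549 (0.56 ± 0.13, adjusted p = 0.0118) and SDHD lower (-0.46 ± 0.16, adjusted p = 0.0443), while SDHA and SDHC had -0.26 ± 0.16 and 0.03 ± 0.12. Over the 4 pairs the median difference in log2(FPKM + 1) averaged -0.57 ± 0.45 (SD) for the mitochondrial and -0.10 ± 0.11 for the nuclear members, and the latter became 0.054 with TMM scaling. The 51 members called fell to 30 (23 higher and 7 lower) without the parental control pair and were 34 to 47 without any other pair.

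Within paralogue sets the levels of single genes differed between the lines. ATP5G1 and ATP5G2 were higher in BT549 (0.57 ± 0.13 and 0.83 ± 0.18) and ATP5G3 was lower (-0.48 ± 0.13), with adjusted p = 0.011, 0.00847 and 0.0222. COX7A2L was lower (-0.44 ± 0.15, adjusted p = 0.0456), and COX7A2 (0.30 ± 0.15), NDUFA4 (-0.32 ± 0.17), COX4I1 (-0.15 ± 0.13), COX6A1 (0.14 ± 0.17), COX7B (0.02 ± 0.15) and COX8A (0.21 ± 0.16) did not pass the test. COX6B1 was lower in BT549 (-0.44 ± 0.15, adjusted p = 0.044). UQCRH, with -0.11 ± 0.13, did not pass.

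**Figure D3:**
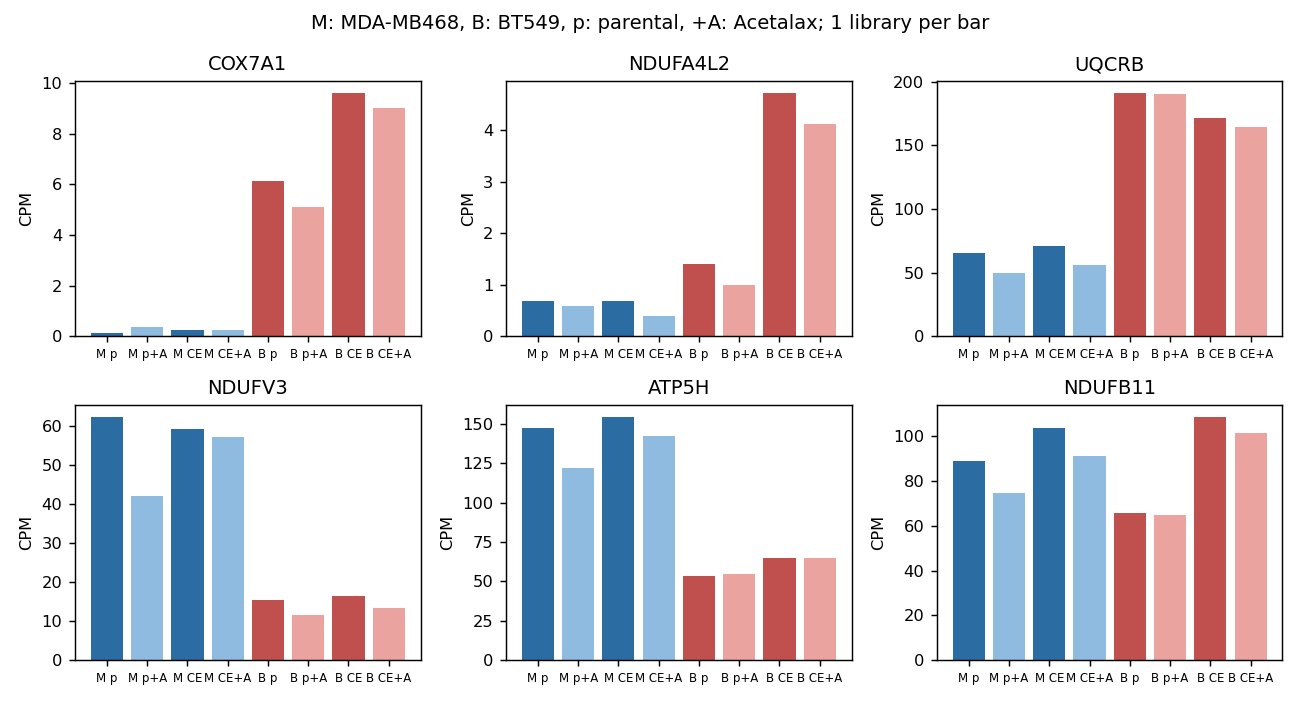
CPM of COX7A1, NDUFA4L2, UQCRB, NDUFV3, ATP5H and NDUFB11 in each of the 8 libraries, 1 library per bar and each panel with its own linear axis from 0. COX7A1 and UQCRB are high in all 4 BT549 libraries, NDUFV3 and ATP5H in all 4 MDA-MB468 libraries, and NDUFA4L2 is highest in the CE libraries of BT549 (4.72 and 4.11 CPM).

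The 6-hour treatment was compared with control over the 4 backgrounds (2 lines, parental and CE), each treated library with its own control. A single member passed, MT-ND2, which was higher after Acetalax in 4 of 4 backgrounds (log2 fold change 0.40 ± 0.08 (SE), adjusted p = 0.0424), where 2.72% of all genes tested were higher. MT-ND2, a membrane subunit of complex I, went from 3232 to 3804 CPM in parental and from 3975 to 4409 CPM in CE MDA-MB468, and from 4016 to 5603 and from 2448 to 3183 CPM in BT549. The call was lost without any 1 of the 4 backgrounds (adjusted p = 0.064 to 0.179) and with additive terms for line, state and treatment (adjusted p = 0.302). The median difference of log2(FPKM + 1) over the 13 mitochondrial members was -0.29, -0.07, 0.11 and -0.38 in MDA-MB468 parental, MDA-MB468 CE, BT549 parental and BT549 CE cells. Over the 79 nuclear members it was -0.23, -0.13, 0.04 and -0.01, with 75, 73, 29 and 44 of them lower. The means over the 4 backgrounds were -0.16 ± 0.22 (SD) for the mitochondrial and -0.08 ± 0.12 for the nuclear members. Over the 11135 genes averaging at least 5 CPM, the median difference was itself below 0, at -0.07, -0.03, -0.08 and -0.13 in the same order of backgrounds. Scaling by TMM factors in place of total counts added 0.05, 0.05, 0.06 and 0.12 to these differences, which turns the nuclear median of BT549 CE cells positive.

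Along the mitochondrial genome the treatment differences varied by gene. In the same order of backgrounds, the difference in log2(FPKM + 1) was 0.00, 0.09, 0.33 and 0.18 for MT-ND1 and 0.24, 0.15, 0.48 and 0.38 for MT-ND2, the first protein genes after the ribosomal RNAs. Further along the heavy-strand transcript it was -0.30, -0.19, -0.13 and -0.43 for MT-CO1, -0.29, -0.03, 0.18 and -0.31 for MT-CO2, -0.14, 0.02, 0.26 and -0.34 for MT-ATP8, -0.22, 0.01, 0.10 and -0.44 for MT-ATP6 and -0.41, -0.07, 0.02 and -0.53 for MT-CO3. It was -0.26, 0.01, 0.20 and -0.42 for MT-ND3, -0.37, -0.25, 0.21 and -0.28 for MT-ND4L and -0.40, -0.26, 0.11 and -0.30 for MT-ND4. From MT-CO1 to MT-ND4 every value was below 0 in MDA-MB468 parental and BT549 CE cells. Toward the end it was -0.63, -0.39, 0.03 and -0.38 for MT-ND5, -0.74, -0.39, -0.09 and -0.57 for MT-ND6 on the other strand, and -0.28, -0.13, 0.10 and -0.58 for MT-CYB. The ribosomal RNAs before MT-ND1 were lower in all 4 backgrounds, with -0.48, -0.37, -0.13 and -0.37 for MT-RNR1 and -0.51, -0.29, -0.38 and -0.52 for MT-RNR2. In each background MT-ND2 had the highest difference of the 13. These are single pairs, and the order of genes was not tested.

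**Figure D4:**
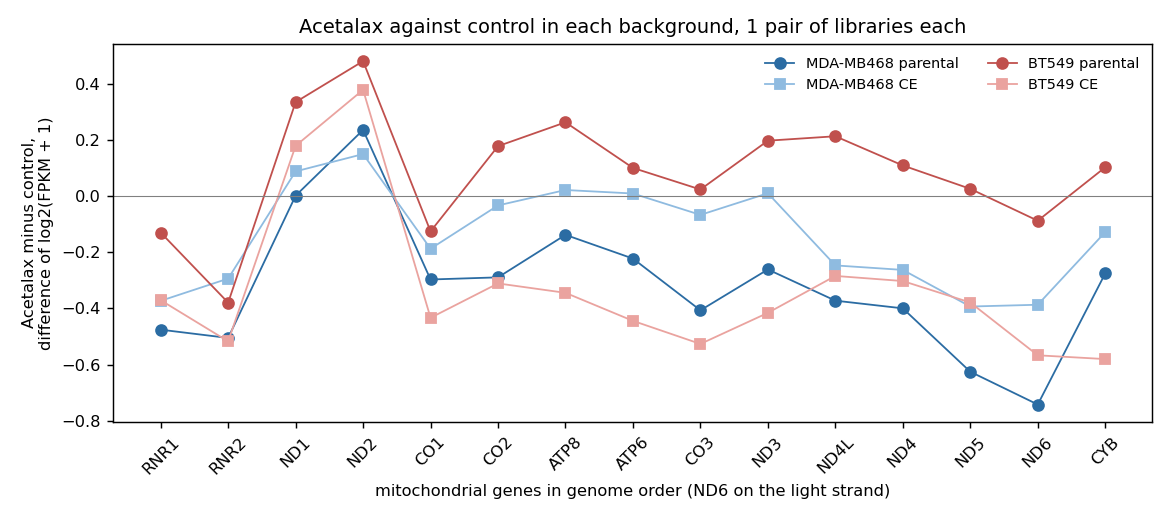
Difference in log2(FPKM + 1), Acetalax minus control, of the 15 mitochondrial rRNA and protein genes in genome order, with 1 line per background and 1 pair of libraries behind each point. MT-ND2 is the highest point of the protein genes in each background (0.24, 0.15, 0.48 and 0.38), and both ribosomal RNA genes lie below 0 in all 4.

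Within BT549, 3 members were higher after Acetalax, where 5.72% of all genes tested were. They were MT-ND2 (log2 fold change 0.55 ± 0.05 (SE), adjusted p = 0.011), MT-ND1 (log2 fold change 0.37 ± 0.06 (SE), adjusted p = 0.0157) and NDUFA11 (log2 fold change 0.79 ± 0.17 (SE), adjusted p = 0.0312), and none was lower. NDUFA11, a membrane accessory subunit of complex I, measured 7.16, 8.50, 7.14 and 8.10 CPM in MDA-MB468 and 8.54, 15.2, 9.59 and 13.8 CPM in BT549, higher in each treated library than in its control, and had a log2 fold change of 0.54 ± 0.17 over the 4 backgrounds (adjusted p = 0.0923). The count was 7, with 2 higher and 5 mitochondrial members lower, without the parental Acetalax library of BT549, and 5 (2 higher and 3 lower) without its parental control library.

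Within MDA-MB468, MT-ND2 was higher (log2 fold change 0.26 ± 0.05 (SE), adjusted p = 0.0328), where 4.23% of all genes were, and MT-ND5 lower (log2 fold change -0.45 ± 0.09 (SE), adjusted p = 0.0294), where 2.41% were. MT-ND5 went from 6916 to 4482 CPM in parental cells and from 6549 to 4986 CPM in CE cells. With DESeq2 size factors, and with DESeq2, the MDA-MB468 calls were MT-ND5 and MT-ND6, both lower, and MT-ND2 did not pass. Neither member was called when any 1 library of MDA-MB468 was left out, and 6 or 7 members were when 1 of BT549 was. The difference of the treatment effects between the lines gave 0 members by edgeR, where 1.78% of all genes passed. At an unadjusted p under 0.05 there were 12 members (12.8%, below the 17.3% of all genes), all with a positive difference, and DESeq2 called 0. The median difference was 0.26 over the nuclear members, against -0.01 over all genes tested. The log2 fold change was higher in BT549 than in MDA-MB468 for 78 of the 81 nuclear members. These members were measured in the same 8 libraries and are not replicates, and the count of signs was not tested.

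Treatment effects within parental cells, within CE cells, and their difference gave 0 called members. These contrasts gave 0 calls over all genes (0% of 19693). By unadjusted p under 0.05, MT-ND2 alone among members passed in parental cells and in CE cells and none passed for the difference, and DESeq2 called no member in any of the 3. In parental cells NDUFA11 (0.23 in MDA-MB468 and 0.79 in BT549) and NDUFS7 (0.05 and 0.40) were higher in both lines, and NDUFA5 (-0.59 and -0.21) and NDUFV3 (-0.51 and -0.28) were among the lowest, as differences of log2(FPKM + 1). In CE cells NDUFA11 (0.17 and 0.50), ATP5G1 (0.01 and 0.20) and NDUFAB1 (0.03 and 0.11) were highest, and UQCR11 (-0.27 and -0.41) and NDUFA5 (-0.24 and -0.29) were among the lowest. Over all 4 backgrounds the members lower in each included NDUFA5 (mean -0.33), UQCR11 (-0.29), NDUFV3 (-0.26) and NDUFA8 (-0.25).

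The surrounding machinery, 168 genes in 10 lists (assembly factors of each complex, electron carriers, mitochondrial transcription, RNA processing, the mitochondrial ribosome and biogenesis regulators), was examined in the same fits. In CE BT549, assembly factors gave 1 call among 13 for complex I (NDUFAF6, log2 fold change -1.02 ± 0.18 (SE), adjusted p = 0.00569), 1 among 6 for complex III (LYRM7, -0.69 ± 0.19) and 1 among 19 tested for complex IV (COA6, -0.51 ± 0.15), all lower. Over the 10 lists, 6 of 164 tested genes were higher (3.66%) and 15 lower (9.15%), where 12.3% of all genes tested were higher and 10.1% lower, so that the share of lower calls was near the background. The ATP synthase inhibitor ATPIF1 was higher (0.51 ± 0.13). TFAM, which packages mitochondrial DNA and starts its transcription, fell (log2 fold change -0.60 ± 0.11 (SE), adjusted p = 0.00845), as did the DNA maintenance nuclease MGME1 (-0.66 ± 0.12), 2 of the 15 genes of that list. TFAM measured 112, 106, 66.1 and 68.5 CPM in BT549, with both CE values below both parental ones. The complex II assembly factors, the electron carriers and the biogenesis regulators had no call there.

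In the RNA processing list 2 of 19 tested genes were higher in CE BT549, FASTK (1.11 ± 0.15) and the exoribonuclease PNPT1 (0.68 ± 0.13), and 4 were lower, the mitochondrial poly(A) polymerase MTPAP (-0.54 ± 0.15), the deadenylase PDE12 (-0.52 ± 0.14), the RNA-binding protein SLIRP (-0.43 ± 0.13) and KIAA0391, the nuclease subunit of mitochondrial RNase P (-0.89 ± 0.25). These were 10.5% and 21.1% of the list, against the 12.3% and 10.1% of all genes. Since the libraries were polyA-selected, the count of a mitochondrial mRNA can depend on its tail, and tail length was not measured. A link between these genes and the mitochondrial mRNA counts was not tested. Of 74 tested genes of the mitochondrial ribosome, 3 were higher and 6 lower (4.05% and 8.11%, against the same 12.3% and 10.1%). The median log2 fold changes of these lists were -0.23 for transcription and DNA maintenance, -0.23 for RNA processing and -0.07 for the ribosome, against -0.02 over all genes tested. In CE MDA-MB468 the calls were ACN9 and MRPL18 (-0.77 ± 0.12), both lower.

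ACN9 (SDHAF3, chr7:96745902-96811075), an assembly factor that helps put the iron-sulphur subunit into complex II, had the lowest mean difference between CE and parental cells (-1.38 in log2(FPKM + 1)) of the listed genes with the same sign in all 4 pairs. The mean came almost wholly from MDA-MB468, with -2.94 in control and -2.52 in Acetalax cells, against -0.04 and -0.02 in BT549. It had 309 and 219 counts in parental control and Acetalax MDA-MB468 and 0 and 0 counts in the CE libraries, against 386, 286, 480 and 328 counts in BT549. In MDA-MB468 it was at least 93.5-fold lower in CE control and at least 71.5-fold lower in CE Acetalax cells, with 3 counts per library taken as the floor of a count of 0 (adjusted p = 0.00033, edgeR). SDHB, the subunit that it serves, measured 71.8, 60.1, 78.6 and 75.3 CPM in the same libraries (log2 fold change 0.19 ± 0.12 (SE), adjusted p = 0.482), and did not pass the test.

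After Acetalax 4 listed genes were higher over the 4 backgrounds, the coactivator PPRC1 (0.73 ± 0.11), GABPB1, a subunit of the ETS factor GABP (0.78 ± 0.16), C10orf2, the mitochondrial DNA helicase Twinkle (0.88 ± 0.16), and MRPS24 of the small ribosomal subunit (2.03 ± 0.37). They were 2.44% of the 164 listed genes tested, near the 2.72% of all genes that were higher. MRPS24 was lower in CE than in parental cells in all 4 pairs (mean difference of log2(FPKM + 1) -0.64) without passing that test. Its values rest on few counts, 34, 209, 14 and 100 in MDA-MB468 and 107, 169, 45 and 177 in BT549. MTERFD2 and TFB1M were lower in all 4 backgrounds (mean differences of log2(FPKM + 1) -0.65 and -0.60) without passing the test. Between the lines, UQCC1, an assembly factor of complex III, was higher in BT549 in all 4 pairs (mean difference 2.40), and MRPS17 and MRPL49 were lower (-1.77 and -1.67). Of the 74 ribosomal genes tested, 22 were called higher in BT549 and 17 lower, and of the 15 genes of mitochondrial transcription and DNA maintenance 7 were called higher and 1 lower. The ribosomal shares were 29.7% and 23%, where 27.3% of all genes tested were higher in BT549 and 29.5% lower, and over the 10 lists they were 29.9% and 20.7%.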

How the data were processed

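RNA was polyA-selected, prepared with a directional kit and read as 101-base pairs from 8 libraries, 1 for each combination of 2 lines, parental or CE state, and control or Acetalax. Per the labels, the reads were aligned to hg19 with STAR (2.7.11b in the submitters' processing notes), and the authors deposited 1 table of raw counts per gene; the annotation and the strand setting are not given in the sources used here. Of 58154 rows, 2475 repeated an identifier and were dropped, 28 symbols turned into dates were restored, and no row lacked a gene identifier. The counts were tested as deposited.

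Genes were filtered with filterByExpr and scaled by TMM, and edgeR 4.0.16 quasi-likelihood tests (R 4.3.3) were fitted over 19693 genes with Benjamini-Hochberg adjustment at 0.05. Pooled contrasts blocked the 4 matched pairs (3 residual degrees of freedom). Contrasts within a line used terms for state and treatment in each line, and those within a state terms for line and treatment in each state (2 residual degrees of freedom). Each fit held all 8 libraries, so a test within 1 line also drew its spread from the other line. CPM were computed from total counts, and FPKM from the length of the Ensembl canonical transcript (GENCODE 44 lifted to GRCh37, 104 of 105 members). Differences per pair are of log2(FPKM + 1) and have a pseudocount of 1. They understate the change of low genes. Members averaging under 1 CPM were left out of medians. Library totals ran from 42261122 to 54241728 counts, and intervals from them cover counting error only.

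All 13 mitochondrial genes are named, and of nuclear members every called one up to 8, otherwise the 5 with the largest rise and fall, and where none was called the 5 highest and lowest with the same sign in every pair. Also named are paralogue sets, the SDH genes, the 3 most and least abundant members per complex, members under 1 CPM and, per pooled contrast, the 2 highest and lowest genes of the lists. Further members were named after their values were seen. Some genes that this rule names are not reported here. The members and lists were chosen with earlier results of these data known. The alternatives were DESeq2 (1.42.0), its size factors in edgeR, scaling over nuclear genes, no filter on low counts, other terms, a pseudocount of 0.1, a minimum of 10 CPM and leaving out each library or pair. Merged exon length in place of transcript length was chosen after seeing the data. The procedures were tested on simulated data. Promoter sequences came from RefSeq.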

Additional observations from a re-analysis of the deposited data

Results flagged for a closer look

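For 13 members the effect of CE differed between the 2 lines by a test of the difference itself (edgeR quasi-likelihood, adjusted p under 0.05, 2 residual degrees of freedom). These were 13.8% of the 94 members tested, near the 12.2% of all genes for which it differed. Values are the log2 fold change of CE against parental cells in BT549 minus that in MDA-MB468. Of the mitochondrial genome, MT-CO3 had -0.95, MT-ND3 -0.90, MT-ND2 -0.89, MT-ND1 -0.70, MT-ATP6 -0.70 and MT-CO1 -0.62, with lower levels in CE cells of BT549 in each. Of nuclear members, NDUFA4L2 had 2.29, NDUFC1 0.93, NDUFB7 0.71, ATP5D 0.63, ATP5A1 0.63, ATP5G2 0.62 and ATP5B 0.42, with higher levels in CE cells of BT549 in each. Without the parental Acetalax or the CE Acetalax library of MDA-MB468, MT-ND2 was the only one of the 13 still called. No group held 4 samples, so no library could be tested for standing apart from its group.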

How the results depend on the processing

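Of 105 calls on single genes, 90 were kept under every alternative other than leaving out libraries and 41 under all of them, and none changed direction. With 1 library per condition, leaving out a library moved most counts of members called. The counts ran from 18 to 34 (35 with all libraries) for CE against parental in BT549, 0 to 2 (0) in MDA-MB468 and 1 to 20 (13) for the difference between the lines. They ran from 30 to 47 (51) between the lines, 2 to 7 (3) for Acetalax in BT549, 0 to 7 (2) in MDA-MB468 and 0 to 4 (0) for the difference of these effects. For Acetalax over the 4 backgrounds the count was 0 without any 1 pair. That count was 5 without the filter on low counts (NDUFA11, MT-ND1, MT-ND2, MT-ND5 and MT-ND6), 2 with DESeq2 (MT-ND2 and NDUFA11) and 0 with additive terms, against 1. Without the filter it was 4 against 2 for Acetalax in MDA-MB468, and 1 against 0 for the difference between lines, for parental cells and for CE cells. DESeq2 called 1 member for CE against parental over both lines, against 0. The causes were not tested.

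The median difference of nuclear members between the lines was -0.10 by total counts and 0.054 with TMM-scaled totals. TMM scaling moved the median of all genes by 0.12 for Acetalax in BT549 CE cells and by 0.16 and 0.23 between the lines in the CE control and CE Acetalax pairs. Scaling over nuclear genes alone left each count within 1.5 times. Without any 1 pair the median of the mitochondrial members ran from -0.25 to -0.08 for Acetalax, from -0.39 to -0.05 for CE and from -0.76 to -0.44 between the lines. No paired analysis by replicate number was possible because the labels give none. Levels of NDUFA4L2, NDUFV2 and MRPS24, and of COX7A1 in MDA-MB468, rest on few counts, and overlapping genes lower the counts of 33 members.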

Other observations

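The mitochondrial ribosomal RNAs, MT-RNR1 and MT-RNR2, are not members and are retained only in part by polyA selection. Their counts were 0.273, 0.238, 0.248 and 0.222 times those of the 13 mitochondrial mRNAs in MDA-MB468 (parental control, parental Acetalax, CE control and CE Acetalax), and 0.338, 0.247, 0.190 and 0.167 times in BT549. The ratio was lower in the treated than in the control library of each of the 4 backgrounds. Between CE and parental BT549 the share of the ribosomal RNAs differed more than that of the mRNAs. In control cells it was 0.439 times the parental share, against 0.780 times for the mRNAs and 1.18 times for the nuclear members, and in Acetalax cells these ratios were 0.396, 0.587 and 1.12. In MDA-MB468 they were 0.922, 1.01 and 1.02 in control and 1.06, 1.14 and 1.09 in Acetalax cells. Each ratio compares 1 library with 1 library and was not tested.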
